A study of Mus musculus with 12 samples.

Results

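The SR splicing factors are the 10 genes Srsf1, Srsf2, Srsf3, Srsf4, Srsf5, Srsf6, Srsf7, Srsf9, Srsf10 and Srsf11. They were taken by gene name from the 54345 genes of the deposited table, whose values are FPKM, that is, read fragments divided by gene length in kilobases and by a library scaling, and each symbol matched 1 gene. The cells were wild-type H9c2(2-1), a line from embryonic heart that the study describes as rat, whereas the labels give Mus musculus as the organism and myoblast as the cell type, all harvested after 6 h. The groups, with 3 libraries each, were untreated cells (Unt), cells given the anthracycline doxorubicin (DOX), cells given DOX with the iron chelator dexrazoxane (D_DXZ), and cells given DOX with magnesium hexacyanoferrate nanocatalysts (D_MgHCF). D_DXZ and D_MgHCF cells carried DOX as well, no group received DXZ or MgHCF alone, and the doses in the sequenced cells are not given in the sources used here. The study set these libraries side by side to follow how transcription responds to DOX and to the 2 protective agents. Nothing in the labels says whether the 3 libraries of a group came from separate cultures, so the p-values measure the spread between libraries, which may be technical.

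SR proteins carry at least 1 RNA recognition motif and a tail rich in arginine-serine repeats. They bind enhancer sequences in exons and help the U1 and U2 particles of the spliceosome to recognise the neighbouring splice sites, which makes them regulators of both constitutive and alternative splicing, in heart cells as elsewhere. The tail is phosphorylated by the SRPK and CLK kinases, which sets where in the cell the proteins reside and when they act, and hnRNP proteins often oppose them at the same exons. Many SR genes also control their own level by splicing in a premature stop, which sends the transcript to nonsense-mediated decay (NMD). In the GENCODE M21 annotation, 9 of the 10 genes had a transcript of the NMD class and 8 had a transcript with a retained intron. The FPKM values are per gene and do not separate these forms.

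On the mouse assembly GRCm38, Srsf6 lies on chr2:162931528-162937121 (plus strand), Srsf4 on chr4:131873617-131901706 (plus strand) and Srsf5 on chr12:80945504-80950507 (plus strand). These 3 genes mark the extremes of the family in the data below: Srsf6 had the lowest log2 fold change of the 10 in D_MgHCF against Unt, Srsf4 the lowest in DOX against Unt on the deposited scale (under quantile normalization Srsf3 was lowest, at -1.91, and Srsf4 was at -1.19), and Srsf5 alone did not pass the test in D_MgHCF against Unt. The 250 bases before their RefSeq start sites, on GRCm38.p6 and read from 5′ to 3′ on the coding strand, are shown to compare their promoters. They are mouse sequences, and because the study describes the line as rat, those of the sequenced cells may differ. Capitals mark the half-site of the cAMP response element, TGACG or its reverse complement CGTCA, and no match to it was found in the Srsf4 stretch.
Srsf6, chr2:162931258-162931507, plus strand: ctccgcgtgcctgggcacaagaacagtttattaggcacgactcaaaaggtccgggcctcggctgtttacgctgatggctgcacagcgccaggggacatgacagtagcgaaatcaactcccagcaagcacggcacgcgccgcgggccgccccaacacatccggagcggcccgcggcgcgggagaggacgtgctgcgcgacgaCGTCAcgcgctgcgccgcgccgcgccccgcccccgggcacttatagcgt
Srsf4, chr4:131873387-131873636, plus strand: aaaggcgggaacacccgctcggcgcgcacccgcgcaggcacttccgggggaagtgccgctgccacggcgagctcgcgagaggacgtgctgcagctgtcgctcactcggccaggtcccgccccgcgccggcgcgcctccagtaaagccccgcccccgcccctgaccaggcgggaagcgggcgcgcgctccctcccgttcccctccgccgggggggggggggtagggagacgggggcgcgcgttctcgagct
Srsf5, chr12:80945249-80945498, plus strand: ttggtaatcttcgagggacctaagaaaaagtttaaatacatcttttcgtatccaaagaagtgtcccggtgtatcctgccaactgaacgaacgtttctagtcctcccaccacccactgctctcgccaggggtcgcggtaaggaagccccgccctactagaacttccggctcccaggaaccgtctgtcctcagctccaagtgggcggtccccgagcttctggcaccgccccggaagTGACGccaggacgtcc

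RefSeq promoters, here 250 bases before to 50 after the start, were found for 10 of the 10 genes. Their median GC content was 68.7%, against 52.7% over all 32851 promoters in the table, and their median number of CpG dinucleotides was 35, against 7. Counted on both strands, TGACG occurred in 7 of the 10 and in 20.8% of all promoters, the GC box GGGCGG in 9 and 35.7%, the ETS motif CCGGAAG in 4 and 8.86%, CCAAT in 4 and 37.4%, and TATAAA in 2 and 13.6%. The full element TGACGTCA, which contains TGACG, occurred in 0 of the 10 and 1.79% of all, and the E-box CACGTG in 0 and 7.15%. These matches describe the mouse windows, which may differ from those of the sequenced cells, and do not show a bound factor.

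Each library held between 16626514 and 19365119 reads on genes. The FPKM values contain a library scaling that sets the medians equal, and this scaling was 1.32 to 1.38 times the summed reads in Unt and 1.26 to 1.43 times in D_MgHCF, whereas it was 0.647 to 0.784 times in DOX and 0.747 to 0.892 times in D_DXZ. Counts of called members are therefore given under other scalings too. Library 3 of D_MgHCF stood apart from the other two (correlations within the group from 0.899 to 0.975, against at least 0.985 in the other groups). The myoblast label was checked against its markers: of 8 genes, 0 were above 1 FPKM in all libraries, Des averaged 1.46 FPKM in Unt, and Myod1, Myf5, Myog and Pax7 were at 0 in Unt. Of 8 cardiomyocyte markers, Gata4 alone passed 1 FPKM in all libraries (10.3 in Unt) and Tbx5 was listed at 0 in all 12. The summed FPKM of this list was 9.79 to 11.2 (Unt), 3.14 to 5.84 (DOX), 3.04 to 4.14 (D_DXZ) and 14.8 to 26.4 (D_MgHCF). Of 6 fibroblast markers, 4 passed it (Vim, Col1a1, Col1a2, Col3a1). The summed FPKM of the fibroblast list was 281 to 335 (Unt), 1010 to 1314 (DOX), 801 to 1026 (D_DXZ) and 124 to 221 (D_MgHCF). Most of it was Vim, which averaged 243 FPKM in Unt, 1042 in DOX, 783 in D_DXZ and 122 in D_MgHCF. Pdgfra was lower in DOX, at 0.352 against 0.718 in Unt, and Thy1 reached at most 0.0477. The sums of these lists are on the deposited scale and were not computed on the others, and the part of the lists in the results below was not tested. The lists of endothelial and epithelial cells held no marker above 1 FPKM in all libraries, and Ptprc, which defines leukocytes, was near 0, although the summed FPKM of the 4 leukocyte markers ranged from 2.23 to 2.83 in Unt and from 4.86 to 10.2 in the treated groups. In bulk libraries such as these, fewer cells of a type and less RNA per cell cannot be told apart.

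In untreated cells levels differed widely between the SR factors on the FPKM scale, which corrects for gene length. Srsf7 was highest at 67.4 ± 3.46 FPKM (mean ± SD, n = 3), and its libraries did not overlap those of the next gene. Srsf2 (56.9 ± 2.97), Srsf6 (56.6 ± 2.13), Srsf9 (54.4 ± 1.94), Srsf5 (51.4 ± 5.396) and Srsf3 (50.4 ± 2.42) followed, and within this run of 5 genes each overlapped its neighbour. Srsf10 (29.5 ± 4.82), Srsf11 (17.1 ± 0.698), Srsf4 (10.8 ± 0.238) and Srsf1 (2.64 ± 0.227) came below, each apart from the next. Srsf1, the first SR protein to be purified, rested on 343 to 394 reads per Unt library, compared with 5966 to 6553 for Srsf3. The values are on mouse gene models although the study describes the line as rat, and the effect of any sequence divergence on the order of the genes was not tested.

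**Figure D1:**
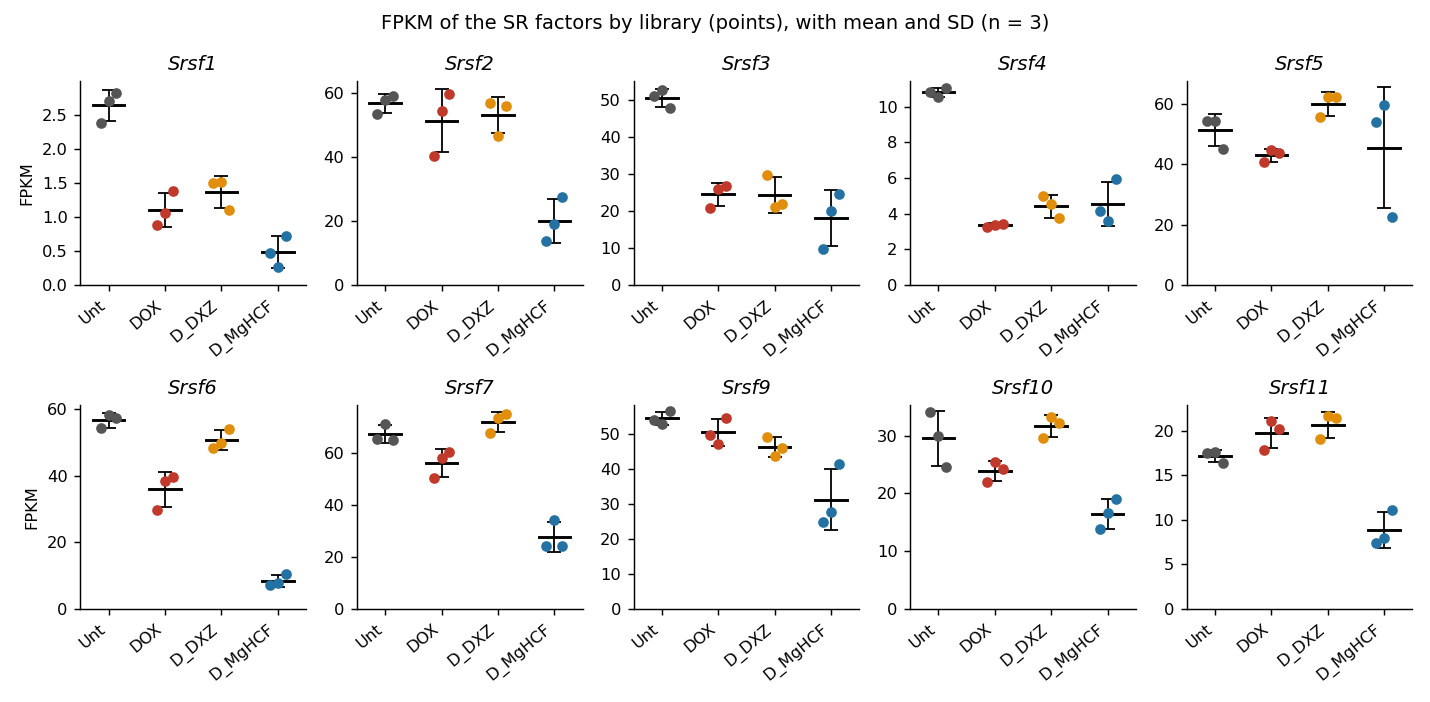
FPKM of each SR factor (y axis, linear and starting at 0) in the 4 groups (x axis), with a point per library, the mean as a bar and the SD as a whisker (n = 3). Srsf6 stands near 57 in Unt and near 8 in D_MgHCF, Srsf4 is lowest in DOX, and the Srsf5 points of D_MgHCF are split between 22.7 and 59.8.

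In DOX cells 4 of the 10 SR factors were lower than in Unt and 0 were higher. Srsf4, Srsf3, Srsf1 and Srsf6 fell, by between 0.65 and 1.44 on the log2(FPKM + 1) scale, whereas Srsf2, Srsf5, Srsf7, Srsf9, Srsf10 and Srsf11 did not pass limma's test at an adjusted p under 0.05. Over all 25044 genes tested, 19.9% were lower and 18.6% higher in DOX than in Unt. Among the 12434 expressed genes, which reached 1 FPKM in 3 or more libraries and to which all 10 members belong, 33.4% were lower and 34.9% higher. On the deposited scale the share of members that fell was thus close to that of expressed genes, and other scalings are given below. No member was higher at an unadjusted p under 0.05, and voom on recovered reads also called 4 lower and 0 higher.

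Srsf4 (SRp75), which has tandem RNA recognition motifs and the longest arginine-serine tail of the classical members, measured 10.8, 10.6 and 11.03 FPKM in the Unt libraries and 3.24, 3.39 and 3.45 in the DOX libraries. The groups were far apart and each was tight, with 142 to 175 reads per DOX library. The mean was 3.22-fold lower in DOX, with a log2 fold change of -1.44 ± 0.15 (SE) and an adjusted p of 3.34e-05 in limma. Of the 12434 expressed genes, 8.27% had a lower log2 fold change than Srsf4. Srsf4 shares 1447 bases with Gm12992, a transcript on the opposite strand that averaged 0.0717 FPKM in Unt and 0.0761 in DOX. How reads were divided between them was not tested.

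Srsf3 (SRp20), the smallest SR protein, which also serves mRNA export and polyadenylation site choice, measured 51.0, 52.5 and 47.8 FPKM in Unt and 20.8, 25.8 and 26.8 in DOX. All DOX libraries lay below all Unt libraries. Its log2 fold change was -1.02 ± 0.27 (SE; limma, adjusted p = 0.0109). Srsf3 has near-identical copies between which reads could be divided. The processed pseudogene Gm9761 is 99.6% identical over 492 bases, and it averaged 22.1 FPKM in Unt, 8.62 in DOX, 7.99 in D_DXZ and 3.53 in D_MgHCF, so the level of Srsf3 is uncertain.

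Srsf1 (ASF/SF2), which acts in splicing, NMD and translation, measured 2.39, 2.71 and 2.82 FPKM in Unt and 0.877, 1.06 and 1.38 in DOX. The groups did not overlap, and the log2 fold change was -0.79 ± 0.16 (SE; limma, adjusted p = 0.00213). This value is compressed by the pseudocount of 1, and with a pseudocount of 0.1 it was -1.20. Under quantile normalization it was -0.39 and did not pass (adjusted p = 0.142). Srsf6 (SRp55), a further member with tandem motifs, measured 54.3, 58.4 and 57.3 FPKM in Unt and 29.8, 38.4 and 39.5 in DOX, again without overlap. It fell by 0.65 on the log2 scale (SE 0.14; adjusted p = 0.00363 in limma).

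The other 6 members had log2 fold changes from -0.28 (Srsf10) to 0.19 (Srsf11) in DOX. The intervals still allowed changes of some size: that of Srsf2 (SC35), a component of nuclear speckles, ran from -0.64 to 0.32, and that of Srsf7, a zinc-knuckle protein that links splicing to export, from -0.55 to 0.04. Srsf7 measured 65.6, 71.4 and 65.2 FPKM in Unt and 50.3, 58.3 and 60.6 in DOX, with every DOX library below every Unt library although the test was not passed. Srsf11, a less typical SR protein, measured 17.5, 17.6 and 16.3 in Unt and 17.8, 21.1 and 20.2 in DOX, where all DOX libraries were higher, by a log2 fold change of 0.19 ± 0.13 (SE; limma, adjusted p = 0.333).

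The count in DOX depended on how the libraries were scaled. When the FPKM values were brought to 1 common sum across libraries (TPM), the median expressed gene fell by 1.18 on the log2 scale, 10 of the 10 members were lower, and the members ranged from -2.85 (Srsf4) to -1.14 (Srsf11). Over all genes the TPM scale gave 1111 higher and 10227 lower, against 4649 and 4973 on the deposited scale. Relative to the median gene on the TPM scale, Srsf4 was at -1.68, Srsf3 at -1.22, Srsf1 at -0.97, Srsf6 at -0.84 and Srsf11 at 0.03, and the remaining 5 were between -0.46 and -0.29. FPKM over the summed reads also placed 10 lower, and quantile normalization 8, without Srsf1 and Srsf11. Of the 12434 expressed genes, 8084 were lower with TPM, 6808 with FPKM over the summed reads and 3486 with quantile normalization. Shares within a library do not depend on a factor applied to the whole library. As a share of the summed FPKM of the 10 members, Srsf4 went from 2.72% ± 0.137 in Unt to 1.09% ± 0.0752 in DOX and Srsf3 from 12.7% ± 0.264 to 7.89% ± 0.281 (SD, n = 3), without overlap. The summed FPKM of the members was 0.177% ± 0.00859 of all FPKM in Unt and 0.0534% ± 0.00174 in DOX.

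**Figure D2:**
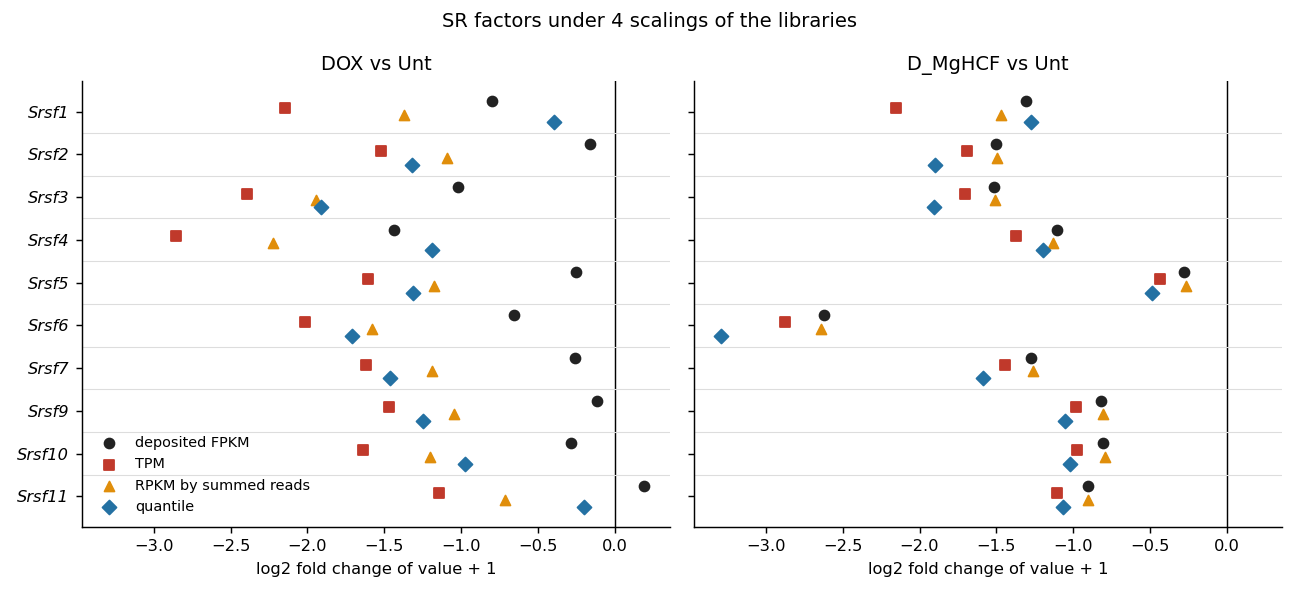
Log2 fold change of value + 1 (x axis) of the 10 SR factors (y axis) in DOX against Unt (left) and D_MgHCF against Unt (right), with a symbol for each of 4 library scalings. In DOX the deposited FPKM place Srsf11 at 0.19 and the TPM values at -1.14, while in D_MgHCF all 4 scalings place Srsf6 lowest and Srsf5 highest.

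In D_MgHCF cells 9 of the 10 SR factors were below Unt and 0 above. On the deposited scale this was more than the 4 lower in DOX. With TPM and with FPKM over the summed reads the lower counts were 9 in D_MgHCF and 10 in DOX, and with quantile normalization 9 and 8. Srsf6 fell most, followed by Srsf3, Srsf2, Srsf1, Srsf7, Srsf4, Srsf11, Srsf9 and Srsf10, and Srsf5 did not pass the test. The place of Srsf1 rests on the pseudocount of 1: with 0.1 it came second, at -2.30, ahead of Srsf3 at -1.57 and Srsf2 at -1.55, and it was second on the TPM scale too. Over all genes tested 15.7% were lower and 24.3% higher, and among expressed genes 28.2% were lower and 22.7% higher. The median log2 fold change of the members was -1.19, compared with -0.07 for expressed genes. No member was higher at an unadjusted p under 0.05, and the count of 9 lower was found under each of the 21 alternatives, voom and the 3 other scalings included. Lower expressed genes numbered 4075 of 12434 with TPM, 3533 with FPKM over the summed reads and 3621 with quantile normalization.

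Srsf6 measured 7.12, 7.68 and 10.6 FPKM in the D_MgHCF libraries, compared with 54.3 to 58.4 in Unt, 29.8 to 39.5 in DOX and 48.3 to 54.1 in D_DXZ. D_MgHCF was the lowest group by a wide margin, and the 4 groups did not overlap. The mean was 6.70-fold lower than in Unt, and the log2 fold change of -2.62 ± 0.14 (SE; 95% interval -2.94 to -2.31) had an adjusted p of 9.81e-06 in limma. Of the 12434 expressed genes, 9 had a lower log2 fold change, and 24 on the TPM scale. Against DOX the log2 fold change of Srsf6 was -1.97 ± 0.14 (adjusted p = 5.07e-06) and against D_DXZ -2.47 ± 0.14 (adjusted p = 4.12e-06). These comparisons share the D_MgHCF libraries.

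Srsf2 measured 13.9, 19.0 and 27.6 FPKM in D_MgHCF, below all Unt libraries (53.6 to 59.2), with a log2 fold change of -1.50 ± 0.22 (SE; limma, adjusted p = 0.000525). Srsf2 shares exonic sequence with Mettl23 and Mfsd11 on the opposite strand. Mfsd11 averaged 3.17 FPKM in Unt and 12.2 in D_MgHCF, and reads in the overlap could be assigned to either gene unless strand was used, which is not given in the sources used here. Srsf7 measured 24.2, 34.3 and 24.4 FPKM and fell by 1.27 on the log2 scale (SE 0.13, adjusted p = 8.95e-05 in limma). Its libraries were likewise all below those of Unt.

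Srsf1 reached the lowest level of any member in D_MgHCF, at 0.467, 0.261 and 0.728 FPKM, which rested on 38 to 102 reads. It fell by 1.30 on the log2(FPKM + 1) scale (SE 0.16, adjusted p = 0.000204 in limma), and the ratio of the means was 0.184. Srsf3 measured 9.87, 20.1 and 24.5 FPKM, a wide spread that still lay wholly below Unt, with a log2 fold change of -1.51 ± 0.27 (adjusted p = 0.00168). Srsf4 measured 4.14, 3.61 and 5.96 FPKM, below the Unt libraries but above those of DOX. Its log2 fold change against Unt was -1.11 ± 0.15 (adjusted p = 0.000342).

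The smaller falls were those of Srsf11 (-0.90 ± 0.13), Srsf9 (-0.82 ± 0.16) and Srsf10 (-0.80 ± 0.14), with adjusted p from 0.000547 to 0.00264 in limma. Srsf9 (SRp30c), the closest relative of Srsf1, measured 24.7, 27.7 and 41.2 FPKM against 52.8 to 56.5 in Unt. Srsf10 (SRp38), which turns into a splicing repressor when dephosphorylated, for example after heat shock, measured 13.8, 16.6 and 19.0 against 24.5 to 34.1, and Srsf11 7.38, 7.97 and 11.1 against 16.3 to 17.6. In each of these 3 genes all D_MgHCF libraries were below all Unt libraries.

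Srsf5 (SRp40), the third tandem-motif relative of Srsf4 and Srsf6, measured 54.0, 59.8 and 22.7 FPKM in D_MgHCF and 54.5, 54.5 and 45.1 in Unt. Library 3 of D_MgHCF was low and the other 2 were at or above the level of Unt, so that the groups overlapped. The log2 fold change was -0.28 ± 0.28 (95% interval -0.91 to 0.35, limma, adjusted p = 0.465), and without library 3 it was 0.15 (adjusted p = 0.259). The copy Gm12966, 98.6% identical over 813 bases, averaged 12.8 FPKM in Unt and 5.95 in D_MgHCF, and how reads were divided between it and Srsf5 was not tested. Within the family, Srsf5 took 12.9% ± 1.07 of the summed FPKM in Unt and 25.4% ± 11.7 in D_MgHCF, where the 3 libraries ranged from 12.1% to 33.8%. Srsf6 took 14.3% ± 0.598 in Unt, 11.6% ± 0.659 in DOX, 13.9% ± 0.587 in D_DXZ and 4.66% ± 0.881 in D_MgHCF, and the last group lay below the rest without overlap.

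**Figure D3:**
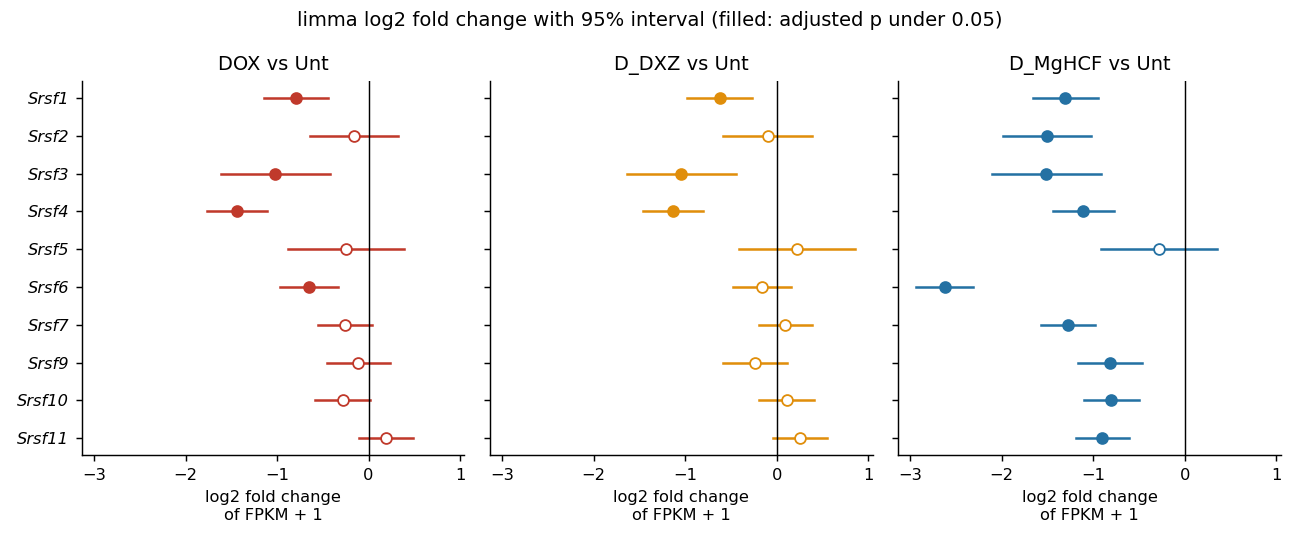
Log2 fold change of FPKM + 1 against Unt (x axis) for each SR factor (y axis) in DOX, D_DXZ and D_MgHCF, from limma with all 12 libraries in 1 fit, with 95% intervals and filled points at an adjusted p under 0.05. Filled points number 4 in DOX, 3 in D_DXZ and 9 in D_MgHCF, and Srsf6 in D_MgHCF lies at -2.62.

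**Figure D4:**
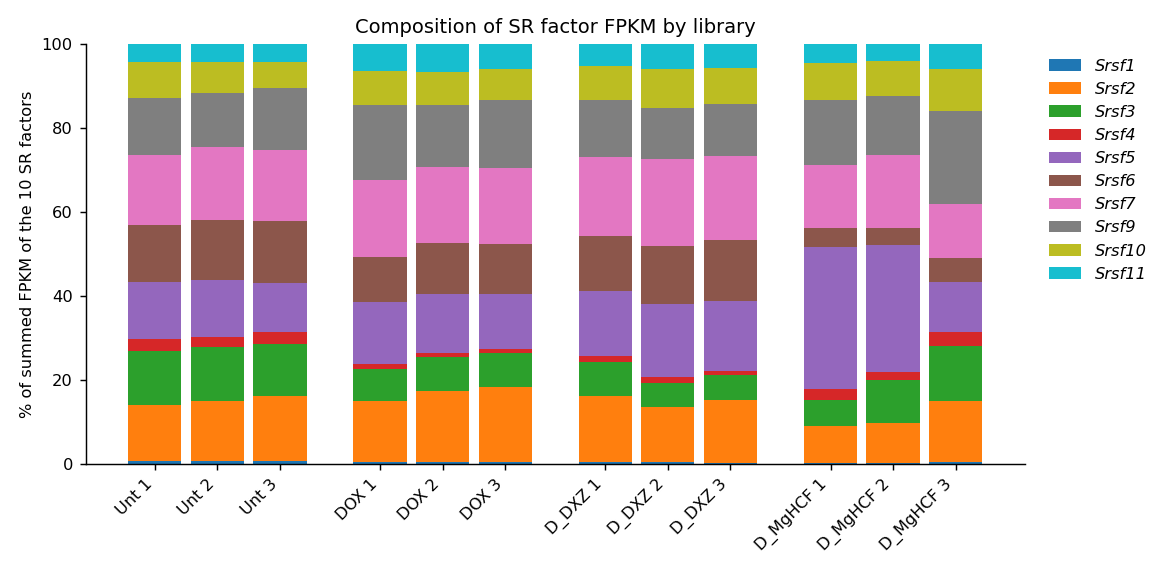
Share of each SR factor in the summed FPKM of the 10 (y axis, percent) by library (x axis). Srsf6 narrows from 14.3% in Unt to 4.66% in D_MgHCF, Srsf4 from 2.72% in Unt to 1.09% in DOX, and Srsf5 widens in libraries 1 and 2 of D_MgHCF.

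In D_DXZ cells 3 of the 10 SR factors were lower than in Unt and 0 were higher, compared with 18% lower and 15.9% higher over all genes tested and 31.4% and 30.2% among expressed genes. Srsf4 measured 4.99, 4.52 and 3.74 FPKM (log2 fold change -1.13 ± 0.15, limma, adjusted p = 0.000248), Srsf3 29.8, 20.999 and 21.9 (-1.04 ± 0.27, adjusted p = 0.0113) and Srsf1 1.497, 1.51 and 1.10 (-0.62 ± 0.16, adjusted p = 0.0107). Srsf1 did not pass under quantile normalization (-0.30, adjusted p = 0.289). These libraries lay below all Unt libraries of the same gene. Srsf6 measured 48.3, 49.9 and 54.1 FPKM, with a log2 fold change of -0.16 ± 0.14 against Unt (adjusted p = 0.509). On the TPM scale, where the median expressed gene fell by 1.10, the count of lower members was 10, with FPKM over the summed reads it was 9, and with quantile normalization 7. Among the 12434 expressed genes 8135, 6635 and 3046 were lower on these 3 scales. No member was higher at an unadjusted p under 0.05 or in voom, which called 3 lower. In the fit of these 2 groups alone, and without library 3 of D_MgHCF, 1 member, Srsf11, was higher and 4 were lower, with Srsf9 as the additional gene.

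D_DXZ and DOX did not separate at the threshold. Of the 25044 genes, limma called 0% higher and 0% lower after adjustment, as did voom. At an unadjusted p under 0.05, 4.56% were higher and 4.97% lower, and 3 of the 10 members were among the higher: Srsf6 (log2 fold change 0.50, 95% interval 0.18 to 0.81, adjusted p = 0.339), Srsf10 (0.39, 0.09 to 0.70, adjusted p = 0.428) and Srsf7 (0.35, 0.06 to 0.65, adjusted p = 0.463). In these genes, all D_DXZ libraries lay above all DOX libraries, and the same was true of Srsf5 and Srsf4. The share of all genes whose libraries separate in this way was not determined. Srsf5 measured 40.7, 44.6 and 43.7 FPKM in DOX and 55.5, 62.3 and 62.3 in D_DXZ, a log2 fold change of 0.47 (95% interval -0.16 to 1.11, limma, adjusted p = 0.651). That interval rests on 1 estimate of spread from all 12 libraries. The SD of Srsf5 was 2.06 FPKM in DOX, 3.92 in D_DXZ and 19.9 in D_MgHCF, which is outside this comparison. For Srsf4 the log2 fold change was 0.31 with an interval from -0.02 to 0.64 (adjusted p = 0.555). For Srsf3, whose libraries overlapped, it was -0.02 with an interval from -0.62 to 0.57.

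D_MgHCF was lower than DOX in 7 of the 10 members and higher in 0, compared with 20.1% lower and 31.4% higher over all genes and 38.1% and 34% among expressed genes. The 7 were Srsf6, Srsf2, Srsf11, Srsf7, Srsf9, Srsf10 and Srsf1, with log2 fold changes from -1.97 to -0.51. The call of Srsf1 was lost in 6 of the 21 alternatives: in the fit of the 2 groups (adjusted p = 0.0755), without library 2 or 3 of DOX (0.0508 and 0.0826), without library 2 of D_MgHCF (0.0773), on the TPM scale (0.978) and in FPKM over the summed reads (0.624). Srsf4 was higher, from 3.24 to 3.45 FPKM in DOX and from 3.61 to 5.96 in D_MgHCF without overlap, by 0.33 on the log2 scale (SE 0.15, unadjusted p = 0.0480, adjusted p = 0.0842 in limma), and it was the 1 member higher at an unadjusted p under 0.05. Without library 2 of D_MgHCF its log2 fold change was 0.46 (adjusted p = 0.0287). Without library 3, Srsf5 was higher by 0.40 (adjusted p = 0.00777) and Srsf3 was lower, at -0.74 (adjusted p = 0.0293). This comparison turned with the scaling: on the TPM scale, where the median expressed gene rose by 1.02, 1 member (Srsf6) was lower and 3 were higher, with FPKM over the summed reads 1 was lower and 2 higher, and with quantile normalization 3 were lower and 0 higher. Of the 12434 expressed genes, 1619 were lower and 7552 higher with TPM. The numbers were 2299 and 6927 with FPKM over the summed reads, and 4065 and 3555 with quantile normalization. Relative to the median gene on the TPM scale, Srsf6 was at -1.88 and Srsf2 at -1.19, while Srsf4 was at 0.46.

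Between the 2 protective agents, D_MgHCF was lower than D_DXZ in 7 of the 10 members and higher in 0, compared with 19% lower and 29.4% higher over all genes and 36% and 30.8% among expressed genes. At an unadjusted p under 0.05, 0 members were higher. The lower members were Srsf6 (-2.47), Srsf2 (-1.41), Srsf7 (-1.37), Srsf11 (-1.16), Srsf10 (-0.91), Srsf1 (-0.68) and Srsf9 (-0.58), all as log2 fold changes with adjusted p of at most 0.0113 in limma. Srsf4 differed by 0.02 with a 95% interval from -0.30 to 0.35, and Srsf3 by -0.47 with an interval from -1.07 to 0.13 (without library 3 of D_MgHCF, -0.72 and an adjusted p of 0.0349). In the fit of the 2 groups Srsf9 did not pass (adjusted p = 0.0732). On the TPM scale 1 was lower and 1 (Srsf4) higher, with FPKM over the summed reads 4 and 1, and with quantile normalization 6 and 0. Of the 12434 expressed genes, 1482 were lower and 7120 higher with TPM. The numbers were 2265 and 6303 with FPKM over the summed reads, and 4033 and 3367 with quantile normalization. The doses of the 2 agents are not given in the sources used here, so they cannot be matched.

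The partners of the SR factors were taken from lists of splicing genes. They are read against the expressed genes, of which 33.4% were lower and 34.9% higher in DOX against Unt. In D_MgHCF against Unt these shares were 28.2% and 22.7%. On the TPM scale 8084 of the 12434 expressed genes were lower and 1058 higher in DOX. The median of expressed genes was 0.02 in DOX and -0.07 in D_MgHCF against Unt on the deposited scale. Shares over all genes tested are given above for each comparison. Without library 3 of D_MgHCF more expressed genes were called too. In DOX 4793 were higher, against 4338 with all libraries. In D_MgHCF 3528 were higher and 4206 lower, against 2820 and 3509. The regulators of SR proteins moved in both directions. Of 14 kinases, phosphatases and transport factors, 3 rose and 5 fell in DOX against Unt, with a median log2 fold change of -0.02, and 0 rose and 8 fell on the TPM scale. Dyrk1a, a kinase of speckle proteins, fell from 7.62 to 7.91 FPKM in Unt to between 1.19 and 1.74 in DOX (-1.86 ± 0.22, adjusted p = 6.73e-05), and Ppp1ca, a catalytic subunit of protein phosphatase 1, rose from between 5.62 and 6.65 to between 20.01 and 22.1 (1.59 ± 0.10, adjusted p = 1.06e-05), although on the TPM scale the rise of Ppp1ca, 0.36, did not pass (adjusted p = 0.0530). In D_MgHCF 2 of the 14 were higher and 4 lower than in Unt, with 4 higher without library 3 of D_MgHCF and with 1 higher and 2 lower in the fit of the 2 groups. They included Tnpo3, the importin that carries phosphorylated SR proteins into the nucleus (-1.01 ± 0.15, adjusted p = 0.000732), and Nxf1, the mRNA export receptor that SR proteins recruit (1.25 ± 0.31, adjusted p = 0.00945), which measured 83.5, 70.8 and 29.98 FPKM in D_MgHCF and 22.6 to 23.6 in Unt.

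The SR-related proteins, which carry arginine-serine repeats but are not classical SR factors, had 15 of 22 genes lower and 1 higher in DOX against Unt, with a median of -0.66 (21 lower and 0 higher on the TPM scale), and 15 lower and 0 higher in D_MgHCF against Unt, with a median of -0.87. Scaf8, which binds the tail of RNA polymerase II, fell most in DOX, from between 19.4 and 20.8 FPKM to between 3.31 and 4.02 (-2.18 ± 0.31, adjusted p = 0.000231). Tra2a, a splicing activator, was the gene that rose (0.40 ± 0.11, adjusted p = 0.0131), but it was lower on the TPM scale (-0.93) and in FPKM over the summed reads (-0.50), and its rise did not pass under quantile normalization, without library 3 of Unt or without library 2 of DOX. Scaf11 fell most in D_MgHCF (-1.94 ± 0.24, adjusted p = 0.000221), with 2.98, 3.14 and 7.01 FPKM against 17.1 to 19.96 in Unt.

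The hnRNPs differed from the SR factors in DOX. On the deposited scale 20 of 28 hnRNP genes rose and 2 fell against Unt, with a median of 1.10, whereas on the TPM scale 5 rose and 12 fell, with FPKM over the summed reads 13 rose and 9 fell, and with quantile normalization 6 rose and 8 fell. Of the 12434 expressed genes, 1995 rose and 6808 fell with FPKM over the summed reads. With quantile normalization 3662 rose and 3486 fell. Hnrnpa2b1, a repressor of exon inclusion and a carrier of RNA, measured 91.5 to 102 FPKM in Unt and 338 to 446 in DOX (2.01 ± 0.21, adjusted p = 4.15e-05 in limma). It remained higher on the TPM scale (0.66, adjusted p = 0.000896), but with quantile normalization the difference of 0.39 did not pass (adjusted p = 0.0984). Pcbp1, a poly(C) binding protein, fell (-1.16 ± 0.28, adjusted p = 0.00615). In D_MgHCF 20 of the 28 were lower than in Unt and 1, Ptbp1, was higher (0.56 ± 0.20, adjusted p = 0.0452), and Hnrnpd was lowest at -2.35 ± 0.27 (adjusted p = 0.000149). The count of 1 higher became 0 when any library other than library 1 of D_DXZ or library 3 of D_MgHCF was left out, and 3 without library 3 of D_MgHCF. The Sm proteins, which form the ring of the spliceosomal particles, had 6 of 7 tested members higher and 0 lower in DOX (median 1.69), and 4 higher and 1 lower on the TPM scale. Snrpe rose from between 30.6 and 43.5 FPKM to between 121 and 163 (2.00 ± 0.18, adjusted p = 1.74e-05). In D_MgHCF 0 of the 7 were higher than in Unt and 1, Snrpd1, was lower (-0.997 ± 0.16, adjusted p = 0.000943). The lower count was 3 on the TPM scale, 2 with quantile normalization and 2 without library 1 of D_MgHCF, and without library 3 of D_MgHCF 2 were higher.

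Ratios within a library do not depend on its scaling. The summed FPKM of the 28 hnRNPs over that of the 10 SR factors was 3.97 ± 0.115 in Unt, 11.9 ± 0.348 in DOX, 9.10 ± 0.742 in D_DXZ and 5.91 ± 1.14 in D_MgHCF (SD, n = 3). The 4 groups did not overlap, with DOX highest and Unt lowest. For the Sm proteins the ratio was 0.769 ± 0.0608 in Unt, 2.85 ± 0.0456 in DOX, 2.03 ± 0.235 in D_DXZ and 1.55 ± 0.377 in D_MgHCF. For the SR-related proteins it moved less, with 1.19 ± 0.0285 in Unt, 0.956 ± 0.0653 in DOX, 1.002 ± 0.0206 in D_DXZ and 1.45 ± 0.194 in D_MgHCF. A few abundant genes weigh most in such sums, and the ratios show unequal change between the lists, not which of them moved.

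**Figure D5:**
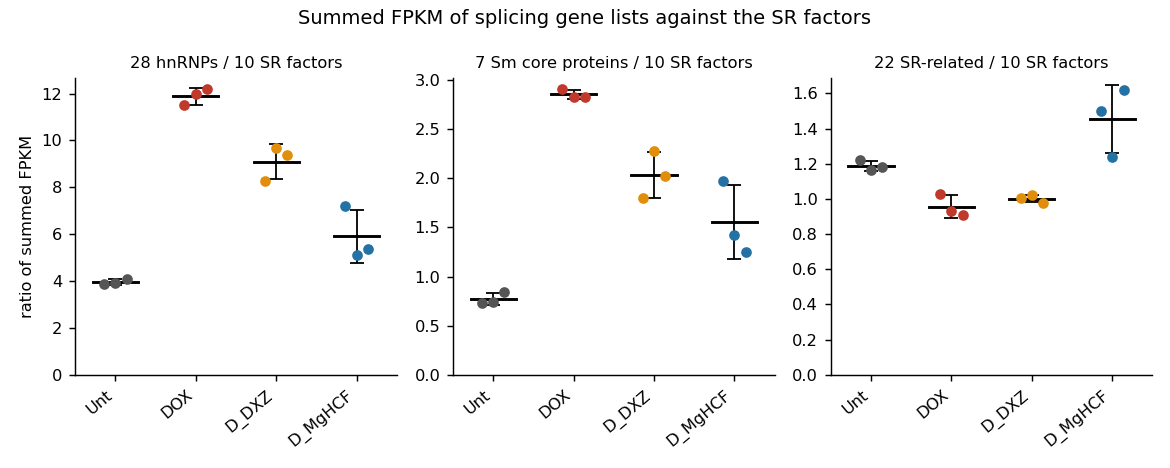
Ratio of the summed FPKM of 28 hnRNPs (left), 7 Sm core proteins (middle) and 22 SR-related proteins (right) to that of the 10 SR factors (y axes, starting at 0), by group, with a point per library, the mean as a bar and the SD as a whisker (n = 3). The hnRNP ratio is 3.97 in Unt and 11.9 in DOX, and the groups do not overlap.

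The core of the spliceosome was mixed. Of 18 U1, U2 and 3′ splice site factors, 9 rose and 5 fell in DOX against Unt on the deposited scale, and 0 rose and 12 fell on the TPM scale, while 0 rose and 10 fell in D_MgHCF. Sf3b5 rose (1.47 ± 0.20, adjusted p = 0.000196; 0.18 on the TPM scale) and Sf3a2 fell (-1.38 ± 0.12, adjusted p = 1.71e-05) in DOX, both of them parts of the U2 particle, and Sf3b3 fell in D_MgHCF (-1.50 ± 0.19, adjusted p = 0.000233). Of 11 genes of the U4/U6.U5 particle, 4 rose and 2 fell in DOX (1 and 8 on the TPM scale), and 0 rose and 5 fell in D_MgHCF. Without library 3 of D_MgHCF 7 rose in DOX. The 5 that fell in D_MgHCF became 2 without library 3 of Unt or library 2 of D_MgHCF, 3 without library 1 or 2 of Unt, library 2 or 3 of DOX or library 2 of D_DXZ, and 3 in the fit of the 2 groups or with no filter. Among the genes of this particle, the GTPase Eftud2 rose in DOX (1.61 ± 0.13, adjusted p = 1.27e-05) and Prpf4 fell in DOX (-1.44 ± 0.12, adjusted p = 1.31e-05). Txnl4a fell in D_MgHCF (-1.22 ± 0.18, adjusted p = 0.000586). Of 15 genes of the exon junction complex and NMD, 3 rose and 5 fell in DOX (0 and 11 on the TPM scale) and 0 rose and 7 fell in D_MgHCF. Without library 3 of D_MgHCF the counts were 5 higher in DOX, and 2 higher and 11 lower in D_MgHCF. Here and for the U4/U6.U5 particle, calls among expressed genes rose with this omission as well, as given with the lists above. The 5 higher in DOX were also found without library 1 of D_MgHCF, in the fit of the 2 groups, in voom and with a minimum of 1 FPKM, and the replicate block gave 6. Magoh, a core subunit of the complex, rose in DOX (1.44 ± 0.20, adjusted p = 0.000207), while on the TPM scale its value was 0.09 and with quantile normalization 0.10. Smg8 fell in DOX (-1.51 ± 0.16, adjusted p = 3.34e-05) and Smg9 in D_MgHCF (-1.73 ± 0.21, adjusted p = 0.000213), 2 proteins that regulate the NMD kinase.

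The members with the highest and the lowest log2 fold change in DOX, Srsf11 and Srsf4, were also set against all genes tested, by the root mean squared difference of centred log2(FPKM + 1) values over the 12 libraries. Closest to Srsf11 were Rfc5 (0.0786), Fam98b (0.0986) and Set (0.1002), and closest to Srsf4 were Extl3 (0.0873), Utp18 (0.105) and Ddx42 (0.107). Within the family the nearest pair was Srsf10 and Srsf11 (0.236) and the farthest was Srsf5 and Srsf6 (1.009). Srsf12, the SR gene of the mouse outside the list, had 0 reads in each Unt and DOX library, which allows up to 3 reads by counting error alone. It had 1, 2 and 4 reads in D_DXZ and 36, 14 and 0 in D_MgHCF, where 2 libraries were above that limit and library 3 was not.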

How the data were processed

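Poly(A) RNA of 12 H9c2 libraries was sequenced by the study as paired-end reads of 150 bases. The authors deposited FPKM values for 54345 mouse Ensembl genes on GRCm38 per library. The submitters' processing notes name HISAT2 2.0.5, while the counting program, the annotation release and any use of strand are not given in the sources used here. Multiplying FPKM by gene length gave whole multiples of 1 unit within each library (tolerance 0.1), from which read numbers were regained for 100% of the entries. The library totals ranged from 16626514 to 19365119 reads. Limits for counts of 0 were set at 3 reads and cover counting error only.

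Differences were tested two-sided with limma (version 3.58.1, under R 4.3.3), with a mean-dependent prior, all 12 libraries in 1 fit and no covariate. The groups shared 1 estimate of spread per gene, so each interval and p-value also reflects libraries outside its comparison. The values were log2(FPKM + 1) of the 25044 genes detected in 3 or more libraries. Benjamini-Hochberg adjusted p-values under 0.05 over all these genes were called, for 6 comparisons. Fold changes are on the log2(FPKM + 1) scale, which understates changes of low genes. Alternatives were TPM, quantile normalization, FPKM over the summed reads, voom on read numbers, 0.1 as pseudocount, a minimum of 1 FPKM, no minimum, a fit of just the groups compared, a replicate block and each library left out. The method was tested on simulated data with known changes. The members, gene lists and tests were chosen with earlier results of these data known, and the promoter motifs after the promoters of the members were seen. All members are named. From each further splicing list, the largest rise and fall in DOX and in D_MgHCF against Unt with an adjusted p under 0.05 and a mean of at least 1 FPKM in the higher group were named, together with Srsf12, the 3 genes nearest to Srsf11 and Srsf4, and near-identical copies (BLAST 2.17.0, at least 95% over 150 bases of GENCODE M21 transcripts). The further copies were Gm12355, Gm7083 and AC141429.1 for Srsf3, and Gm5446 and Gm9134 for Srsf10. AC141429.1 had no entry among the deposited genes, and each of the others averaged below 1 FPKM in every group. Every pair of libraries within a group differed by more than sampling noise. Whether the numbers of the replicates pair the libraries could not be decided. No sample column was left unused.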

Additional observations from a re-analysis of the deposited data

How the results depend on the processing

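The 9 SR factors lower in D_MgHCF than in Unt, and the 0 higher, were found under each of the 21 alternatives, and the counts in D_DXZ against DOX were 0 in all of them. The pseudocount, both filters and voom left each of the 12 counts within 1.5 times of the reported one. The scalings did not, and the cause was not tested. The count of lower members in DOX against Unt, 4, became 10 with TPM, 10 with FPKM over the summed reads and 8 with quantile normalization, and that in D_DXZ against Unt, 3, became 10, 9 and 7. In D_MgHCF against DOX the 7 lower became 1, 1 and 3, with 3 higher in TPM and 2 higher in FPKM over the summed reads. In D_MgHCF against D_DXZ the 7 lower became 1 with TPM and 4 with FPKM over the summed reads, each with 1 higher. The fit of the 2 groups gave 1 higher in D_DXZ against Unt.

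Single-gene values that changed sign did so with the scalings alone, apart from the left-out libraries below, and are log2 fold changes. With TPM the values in D_MgHCF against DOX were 0.69 for Srsf3, 1.17 for Srsf5, 0.17 for Srsf7, 0.49 for Srsf9, 0.66 for Srsf10 and 0.041 for Srsf11. In D_MgHCF against D_DXZ they were 0.54 for Srsf3, 0.52 for Srsf5, 0.44 for Srsf9 and 0.088 for Srsf10. In DOX against Unt they were -1.14 for Srsf11. In D_DXZ against Unt they were -0.96 for Srsf5, -1.09 for Srsf7, -1.06 for Srsf10 and -0.90 for Srsf11. In D_DXZ against DOX they were 0.15 for Srsf3 and 0.051 for Srsf9. With FPKM over the summed reads the values in D_MgHCF against DOX were 0.43 for Srsf3, 0.91 for Srsf5, 0.24 for Srsf9 and 0.41 for Srsf10. In D_MgHCF against D_DXZ they were 0.27 for Srsf3, 0.26 for Srsf5 and 0.18 for Srsf9. In DOX against Unt they were -0.71 for Srsf11. In D_DXZ against Unt they were -0.53 for Srsf5, -0.66 for Srsf7, -0.63 for Srsf10 and -0.47 for Srsf11. In D_DXZ against DOX they were 0.16 for Srsf3 and 0.061 for Srsf9. With quantile normalization the values in D_MgHCF against DOX were 0.0069 for Srsf3, -0.0099 for Srsf4, 0.82 for Srsf5 and 0.19 for Srsf9. In D_MgHCF against D_DXZ they were -0.24 for Srsf4, 0.25 for Srsf5 and 0.12 for Srsf9. In DOX against Unt they were -0.20 for Srsf11. In D_DXZ against Unt they were -0.73 for Srsf5, -0.95 for Srsf7, -0.51 for Srsf10 and -0.021 for Srsf11. In D_DXZ against DOX they were 0.12 for Srsf3 and 0.075 for Srsf9.

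Counts over all genes also moved with the scaling. In DOX against Unt, 4649 were higher and 4973 lower on the deposited scale, 1111 and 10227 with TPM and 2075 and 8303 with FPKM over the summed reads. In D_DXZ against Unt the 3979 higher and 4515 lower became 913 and 10083 with TPM. In D_MgHCF against DOX the 7863 higher and 5027 lower became 13504 and 1691 with TPM. The fit of the 2 groups gave 3349 higher and 2869 lower in D_MgHCF against Unt, compared with 6096 and 3941.

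Leaving out each library in turn gave 0 to 1 higher member in D_DXZ against Unt (1 without library 3 of D_MgHCF) and 0 to 1 in D_MgHCF against DOX (1 without library 2 or without library 3 of D_MgHCF). Apart from those of Srsf5, the single-gene values that changed sign were small. They ranged from -0.0138 to 0.217 for Srsf10 in D_DXZ against Unt, from -0.27 to 0.00134 for Srsf2 in DOX against Unt, from -0.10 to 0.18 for Srsf2 in D_DXZ against DOX, from -0.174 to 0.0672 for Srsf3 in D_DXZ against DOX and from -0.15 to 0.15 for Srsf4 in D_MgHCF against D_DXZ. Srsf5 ranged from -0.28 to 0.40 in D_MgHCF against DOX and from -0.53 to 0.15 in D_MgHCF against Unt, and in both the highest value came without library 3 of D_MgHCF. The value of 0.40 against DOX passed the test (limma, adjusted p = 0.00777).

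With the replicate block the 12 counts were those reported, with 4 lower in DOX, 3 in D_DXZ and 9 in D_MgHCF against Unt and 7 in D_MgHCF against DOX and against D_DXZ. Libraries of the same number had correlations of their deviations from -0.39 to 0.39 (median 0.02). Between DOX and D_DXZ they were 0.39, 0.05 and 0.30, and those of unlike number ran from -0.40 to 0.21. With 3 libraries per group these values cannot decide whether the numbers pair the libraries. Srsf1 is limited by depth, with 38 to 394 reads per library.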
